A study of Mus musculus with 14 samples.

Results

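Immediate early genes are the genes that a cell transcribes first after a stimulus, before any new protein is made. In neurons, calcium entry and cyclic AMP signal through CREB, and MAP kinases signal through SRF with its ternary complex partners, to start their transcription within minutes, and their mRNAs are short-lived. Many of their products are transcription factors that switch on later genes, and for that reason their mRNAs are widely used as marks of recent neuronal firing. The 10 genes described here were taken by symbol from the 51211 gene symbols of the deposited tables, where all 10 were present. They are 4 subunits of the AP-1 transcription factor (Fos, Fosb, Fosl2 and Junb), 4 other nuclear factors (Egr1, Npas4, Nr4a1 and Ier2) and 2 effectors (Arc and Dusp1). The genes were selected by name, in a list drawn up with earlier results of these data known.

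The RNA came from whole olfactory epithelia, 1 per mouse, and 14 mice aged P5 were used in 2 experiments. In the Kir2.1 experiment, 3 mice carrying Omp-IRES-tTA and tetO-Kir2.1-IRES-tauLacZ were compared with 3 control mice that also carried the Omp-IRES-tTA allele but not the Kir2.1 transgene and, by the study's methods, were littermates. The tTA activator is made from the Omp locus, so Kir2.1, an inward rectifier potassium channel that suppresses spontaneous firing, is made in mature olfactory sensory neurons (OSNs), which are only part of the cells in the tissue. The study states that this silencing also reaches vomeronasal neurons. In the PEA experiment, 4 wild-type pups exposed to 2-phenylethylamine (PEA), an odor that mice avoid, from P0 to P5 were compared with 4 wild-type control pups. The labels give C57BL/6 for every mouse, whereas the study's methods name CD-1 pups for odor exposure. The label of the Kir2.1 mice is one that the study gives elsewhere to adults that were fed doxycycline after weaning, although tissue was collected at P5. The stated question is how silencing, or an odor, in the first days after birth alters gene expression in this tissue, and the immediate early genes show whether marks of recent firing differed as well.

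The values are normalized counts, and the experiments are not compared in level because their libraries were made differently (poly-A selected RNA for Kir2.1, ribosomal RNA-depleted RNA for PEA). Kcnj2, which encodes Kir2.1, was at 986 to 1274 in controls and at 17926 to 24193 in mice with the transgene, as the labels require. Omp, the defining marker of mature OSNs, was abundant in every mouse. Of the 9 mature OSN markers examined, Omp passed the adjusted test and all 9 were lower after silencing at an unadjusted p under 0.05 (limma), with a median log2 fold change of -0.41. The call of Omp (limma adjusted p = 0.0466) held in 0 of the 6 fits that leave out a mouse, and its adjusted p ranged from 0.0147 to 0.175 over all alternatives. In whole tissue, fewer cells of a type and less RNA per cell cannot be told apart. Kir2.1 control mouse 1 stood apart, with a sum of 11787 over the vomeronasal receptor genes against 1448 to 1743 in the other 5 mice of that experiment. In the PEA experiment the same sum was 3015 to 10636 in control mice 1, 2 and 3, 7886 in exposed mouse 1 and 586 to 678 in the other 4.

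None of the 10 immediate early genes passed the test in Kir2.1 mice (limma, adjusted p under 0.05), where 0.353% of the 19807 genes tested passed. At an unadjusted p under 0.05, the count was 4 of the 10, against 11.1% of all genes tested. These 4 were Egr1, Fos, Junb and Fosl2, and all had higher values in the silenced epithelium, against 4.93% of all genes at that level and in that direction. The groups did not overlap for 4 genes (Egr1, Junb and Dusp1 higher, Npas4 lower), against 16.3% of all genes tested. The median log2 fold change of the 10 was 0.09, beside 0.01 over all genes. No member had a lower value at an unadjusted p under 0.05. With 3 mice in each group, an exact permutation test cannot go below p = 0.1.

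**Figure D1:**
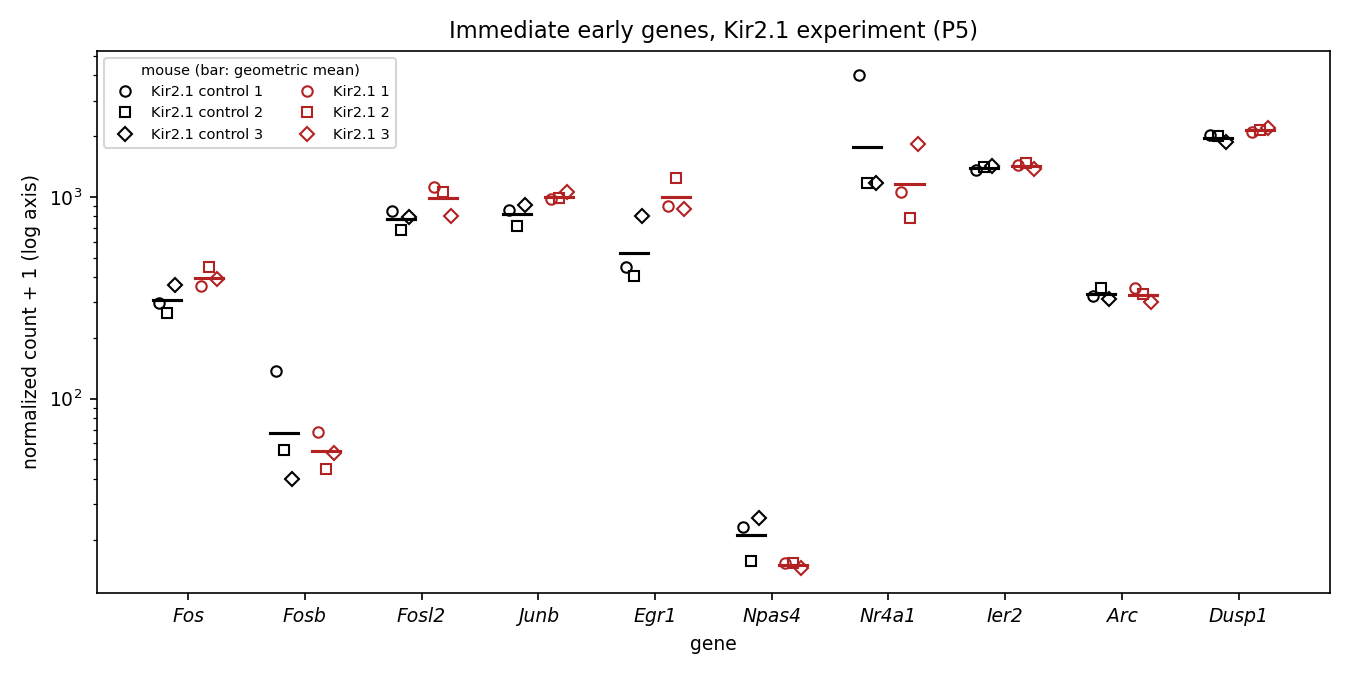
Normalized count plus 1 (log axis) of each immediate early gene in each of the 3 Kir2.1 control mice (black) and 3 Kir2.1 mice (red), with a bar at the geometric mean of the group. Egr1, Junb and Dusp1 lie higher in every Kir2.1 mouse, Npas4 lies lower, and Nr4a1 and Fosb stand out in control mouse 1, at 3999 and 137.

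Egr1 is a zinc-finger transcription factor induced through SRF. Its normalized counts were 449, 403 and 800 in the controls and 904, 1244 and 873 in the Kir2.1 mice. Every Kir2.1 mouse was above every control, although control mouse 3 came close to the lowest of them. The means were 550 ± 217 and 1007 ± 206 (SD, n = 3 each). The log2 fold change was 0.92 (SE 0.27, 95% confidence interval 0.29 to 1.55), and limma gave an unadjusted p of 0.0106 and an adjusted p of 0.269. The exact permutation test gave p = 0.1, the smallest it can give. Across the 17 alternatives the difference remained positive, between 0.73 and 1.22, and the limma adjusted p lay between 0.0834 and 0.595.

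Among the AP-1 subunits, Fos, the founding partner of the Jun proteins (GRCm38 chr12:85473890-85477273, + strand), had normalized counts of 296, 264 and 365 in the controls and 361, 447 and 389 in the Kir2.1 mice. The groups overlapped, because control mouse 3 was above the lowest Kir2.1 mouse. The log2 fold change of Fos was 0.38 (SE 0.15), with a limma adjusted p of 0.415. Junb, a Jun family partner (chr8:84974484-84978718, - strand), was at 861, 715 and 914 in the controls and at 972, 983 and 1052 in the Kir2.1 mice. These groups did not overlap, with a log2 fold change of 0.28 (SE 0.11) and a limma adjusted p of 0.407. Fosl2, which encodes the Fos-related protein FRA2 (chr5:32135801-32157842, + strand), was at 846, 683 and 796 in the controls and at 1121, 1060 and 806 in the Kir2.1 mice. Kir2.1 mouse 3 fell within the control range, and the log2 fold change was 0.35 (SE 0.15, limma adjusted p = 0.436). For Fos, Junb and Fosl2 the unadjusted p was under 0.05 in 8, 9 and 9 of the 17 alternatives.

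Fosb (chr7:19302696-19310051, - strand) did not follow them. Its normalized counts were 137, 54.6 and 38.8 in the controls and 67.7, 43.8 and 52.8 in the Kir2.1 mice, so the groups overlapped and control mouse 1 was the highest. The log2 fold change was -0.29 (SE 0.45, limma adjusted p = 0.884), and it became 0.22 without control mouse 1.

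Nr4a1, an orphan nuclear receptor induced through CREB (chr15:101254269-101274795, + strand), showed the same mouse. The normalized counts were 3999, 1176 and 1168 in the controls and 1056, 789 and 1832 in the Kir2.1 mice. Control mouse 1 was above all 5 others, and the remaining mice overlapped. The log2 fold change of Nr4a1 was -0.62 (SE 0.52, limma adjusted p = 0.748) with that mouse and -0.03 without it. Among the other 50 immediate early genes examined, control mouse 1 was highest of the 6 mice for 12 and lowest for 9. The other mice were not counted in this way, so these counts do not set control mouse 1 apart. Atf3, a stress-induced relative of the AP-1 factors, was at 618 in control mouse 1 and at 150 to 253 in the others. Dusp5, a nuclear MAP kinase phosphatase, was at 836 in that mouse and at 369 to 486 in the others. Atf3 and Dusp5 were chosen after their values were seen. In the PEA experiment Nr4a1 lay between 79.3 and 128 in the 4 mice with a high vomeronasal sum. In the other 4 it lay between 93.5 and 140. That split is confounded with exposure, because the high sums were in control mice 1, 2 and 3 and exposed mouse 1. The part of vomeronasal tissue in the values of control mouse 1 was not tested.

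Npas4, a factor that responds nearly exclusively to calcium entry in neurons (chr19:4984355-4990316, - strand), was the least abundant member. Its normalized counts were 22.2, 14.7 and 24.7 in the controls and 14.3, 14.4 and 13.4 in the Kir2.1 mice. All Kir2.1 mice were below all controls, by a margin of less than 1 normalized count between control mouse 2 and the highest of them. These values rest on few reads. With the most frequent low value of each library taken as 1 read, they stand for about 12.9 to 24.5 reads per mouse. The log2 fold change was -0.49 (SE 0.34, 95% confidence interval -1.27 to 0.30), and limma gave an adjusted p of 0.684.

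The remaining members were Ier2 and the effectors Arc and Dusp1. Ier2, a small nuclear protein (chr8:84661331-84662852, - strand) was at 1351, 1404 and 1415 in the controls and at 1436, 1478 and 1368 in the Kir2.1 mice. Its groups overlapped, and its log2 fold change of 0.04 (95% confidence interval -0.13 to 0.20) turned to just below 0 under median centring. Arc, which encodes a protein that regulates glutamate receptor traffic at synapses (chr15:74669083-74672570, - strand), was at 322, 354 and 312 in the controls and at 353, 328 and 301 in the Kir2.1 mice. These overlapped fully, with a log2 fold change of -0.01 (95% confidence interval -0.27 to 0.26) that had the opposite sign without control mouse 2 and without Kir2.1 mouse 3. Dusp1, a phosphatase that switches off MAP kinases and so limits this response (chr17:26505590-26562128, - strand), was at 2019, 2003 and 1867 in the controls and at 2101, 2149 and 2205 in the Kir2.1 mice. Every Kir2.1 mouse was higher, but by little, with a log2 fold change of 0.13 (SE 0.07, limma adjusted p = 0.542).

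**Figure D2:**
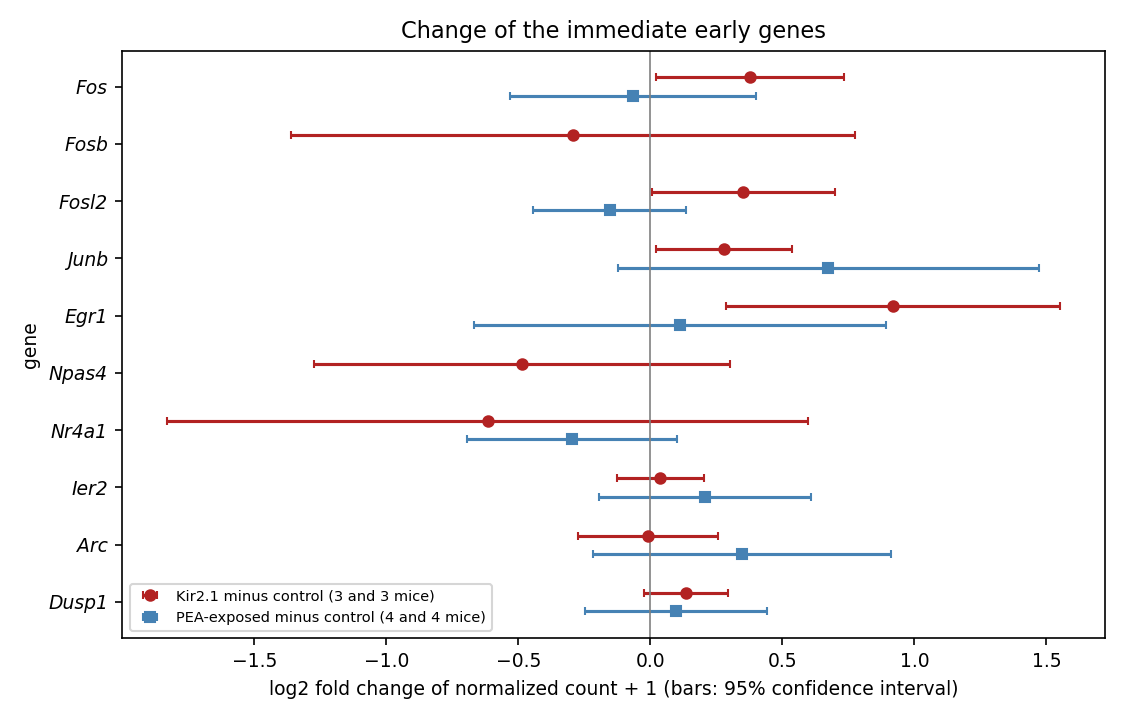
Log2 fold change of each immediate early gene in the Kir2.1 experiment (red circles, 3 mice against 3) and in the PEA experiment (blue squares, 4 against 4), with 95% confidence intervals from limma. The intervals of Fos, Fosl2, Junb and Egr1 lie above 0 in the Kir2.1 experiment, and every PEA interval includes 0. Fosb and Npas4 have no PEA value because they were below the filter.

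In PEA-exposed pups, no member passed the test. Of the 10, 8 reached the filter (a mean of 10 normalized counts) and were tested, and the adjusted test (limma) called none of them, beside 0.179% of the 17322 genes tested. None had an unadjusted p under 0.05, against 15.0% of all genes, and none had groups that did not overlap, against 9.32% of all genes. The median log2 fold change of the 8 was 0.10, beside -0.02 over all genes, and it was -0.03 with the vomeronasal receptor level as a covariate and -0.15 with a mean of at least 50. The smallest p that an exact permutation test can give with 4 against 4 mice is 0.0286.

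Junb had the largest difference of the 8. Its normalized counts were 15.0, 15.4, 8.65 and 14.4 in the controls and 17.3, 28.3, 13.0 and 32.6 in the exposed pups. Exposed mouse 3 was below 3 of the controls, so the groups overlapped. The log2 fold change was 0.67 (SE 0.36, 95% confidence interval -0.12 to 1.47), with a limma adjusted p of 0.408 and an exact permutation p of 0.143. These values rest on few reads: taking the most frequent low value of each library as 1 read, they stand for about 8.40 to 40.3 reads per mouse.

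Egr1 was at 18.6, 42.5, 48.5 and 53.6 in the control pups and at 43.5, 45.4, 26.3 and 54.7 in the exposed pups. One mouse of each group was low, and the log2 fold change was 0.11 (95% confidence interval -0.67 to 0.89). Fos was at 39.6, 36.0, 49.6 and 46.6 in the controls and at 33.5, 38.2, 52.4 and 40.8 in the exposed pups. The groups overlapped, and the log2 fold change was -0.06 (95% confidence interval -0.53 to 0.40). Arc was at 39.7, 34.5, 30.1 and 21.9 against 38.1, 39.3, 52.9 and 30.7, with a log2 fold change of 0.35 (95% confidence interval -0.22 to 0.91).

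Ier2 was at 44.0, 47.2, 48.6 and 34.7 in the control pups and at 47.3, 50.4, 50.5 and 52.3 in the exposed pups. Of the exposed pups, 3 were above every control, and the log2 fold change was 0.21 (SE 0.18) with an exact permutation p of 0.0571. Nr4a1 was at 119, 116, 128 and 133 against 79.3, 93.5, 100.2 and 140 (log2 fold change -0.30, SE 0.18). Here 3 exposed pups were below every control and exposed mouse 4 was above them. Fosl2 and Dusp1 had log2 fold changes of -0.15 and 0.10, with overlapping groups. Fosb and Npas4, at 0 to 8.04 and 0 to 6.85 in the 8 pups, could not be compared at this depth. Whether the effect on any member differed between silencing and odor exposure was not tested.

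**Figure D3:**
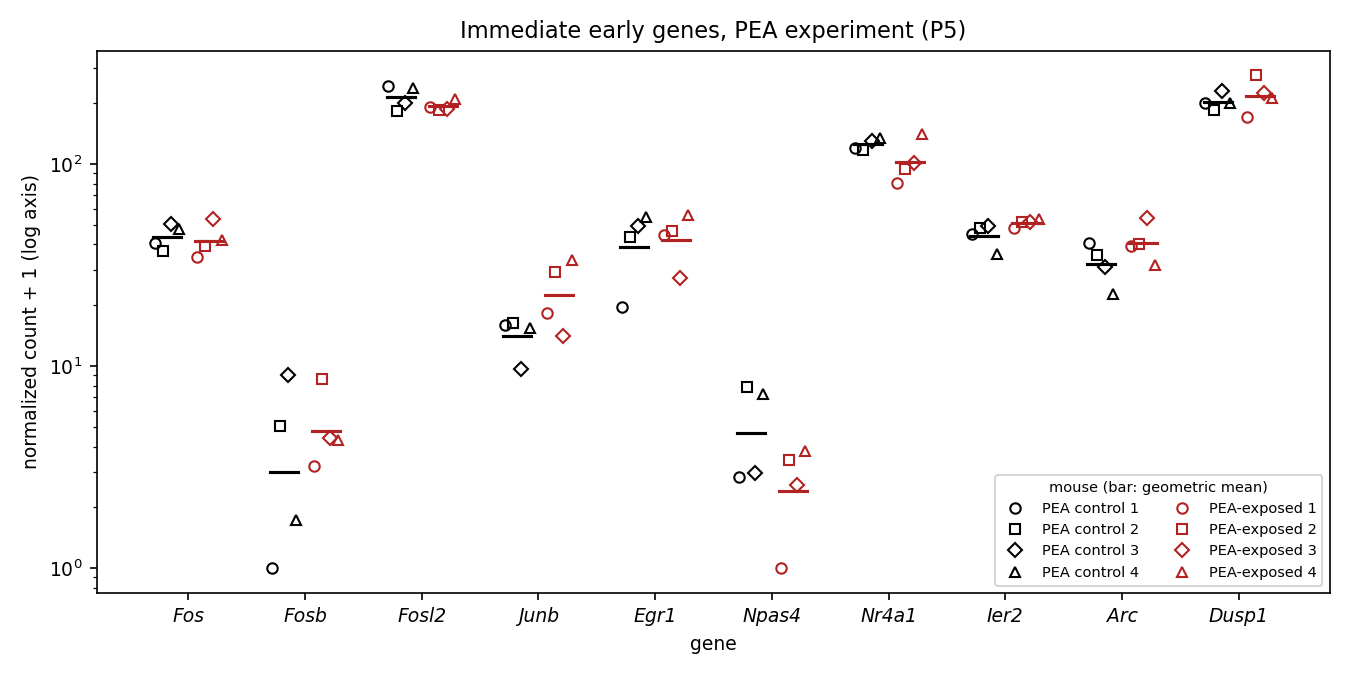
Normalized count plus 1 (log axis) of each immediate early gene in each of the 4 PEA control pups (black) and 4 PEA-exposed pups (red), with a bar at the geometric mean of the group. The groups overlap for all 10 genes.

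The other genes of the pathway came from lists, and those named below for an unadjusted p were chosen after their values were seen. Of 22 other immediate early transcription factors, 21 were tested in the Kir2.1 experiment and none passed, with a median log2 fold change of 0.14. Jun and Jund, the AP-1 partners with the highest normalized counts of that list, had log2 fold changes of 0.14 and 0.10 (limma adjusted p = 0.691 and 0.768). Klf2 (0.51) and Cebpb (0.29) had unadjusted p values of 0.0141 and 0.0210 by limma, both higher and without overlap. Among 29 other effectors and feedback genes, 1 passed. It was Rgs2, which encodes a regulator that turns off G protein signaling, and it rose from 688 ± 7.64 to 1161 ± 110 normalized counts (SD, n = 3 each; log2 fold change 0.75, SE 0.09, limma adjusted p = 0.0325). That call held in 1 of the 6 fits that leave out a mouse, the one without Kir2.1 mouse 3, and the adjusted p ranged from 0.0247 to 0.164 over all alternatives. Ccn2, a matricellular target of SRF cofactors, had a log2 fold change of 0.48 (limma adjusted p = 0.172).

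Genes that follow neuronal activity more slowly were examined in the same mice. Of 11 delayed activity-regulated genes, 9 had a negative log2 fold change, with a median of -0.45. At an unadjusted p under 0.05 (limma), 3 of the 11 were lower, and 2, Inhba (0.61) and Rasgrp1 (0.49), were higher without overlap. Nptx2, a secreted pentraxin of excitatory synapses, passed and fell from 2232 ± 290 to 1145 ± 110 normalized counts (SD, n = 3 each; log2 fold change -0.96, SE 0.12, limma adjusted p = 0.0325). Its call held in 1 of the 6 fits that leave out a mouse, the one without control mouse 1. Syt4, a vesicle protein, had a log2 fold change of -0.61 (limma adjusted p = 0.0636).

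Of 6 genes known to follow activity in OSNs, a list drawn up with earlier results of these data known, 4 passed with lower values. None passed with a higher value. S100a5, a calcium-binding protein of OSNs, was at 6616 to 6859 in the controls and at 1882 to 2180 after silencing (log2 fold change -1.75, SE 0.07, limma adjusted p = 0.000215). Kirrel2, an adhesion molecule of OSN axons, also fell by 1.75 on the log2 scale (limma adjusted p = 0.00128). Both calls held with each mouse left out. Pcp4l1 and Lrrc3b fell by 0.80 and 0.91, and their calls each held in 1 of the 6 fits that leave out a mouse (without Kir2.1 mouse 1 for Pcp4l1 and without Kir2.1 mouse 3 for Lrrc3b). Kirrel3 and Doc2g had log2 fold changes of 0.13 and 0.16. Neither passed the adjusted limma test here. The study reports Kirrel3 as upregulated in these mice, which is the same direction, from a different test (DESeq2 on estimated counts). The tests were not compared on the same values.

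None of the 30 upstream kinases, cofactors and transcription factors passed in the Kir2.1 experiment. The median was -0.03, and Prkaca, a catalytic subunit of protein kinase A and among the list genes with the highest normalized counts, had a log2 fold change of -0.19. Of 11 heat shock genes, none passed, with a median of 0.11. In the PEA experiment no gene of any of these lists passed (limma adjusted p under 0.05). Rgs2 and Nptx2 had log2 fold changes of -0.56 and 0.35 there (unadjusted p = 0.0177 and 0.0342 by limma).

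**Figure D4:**
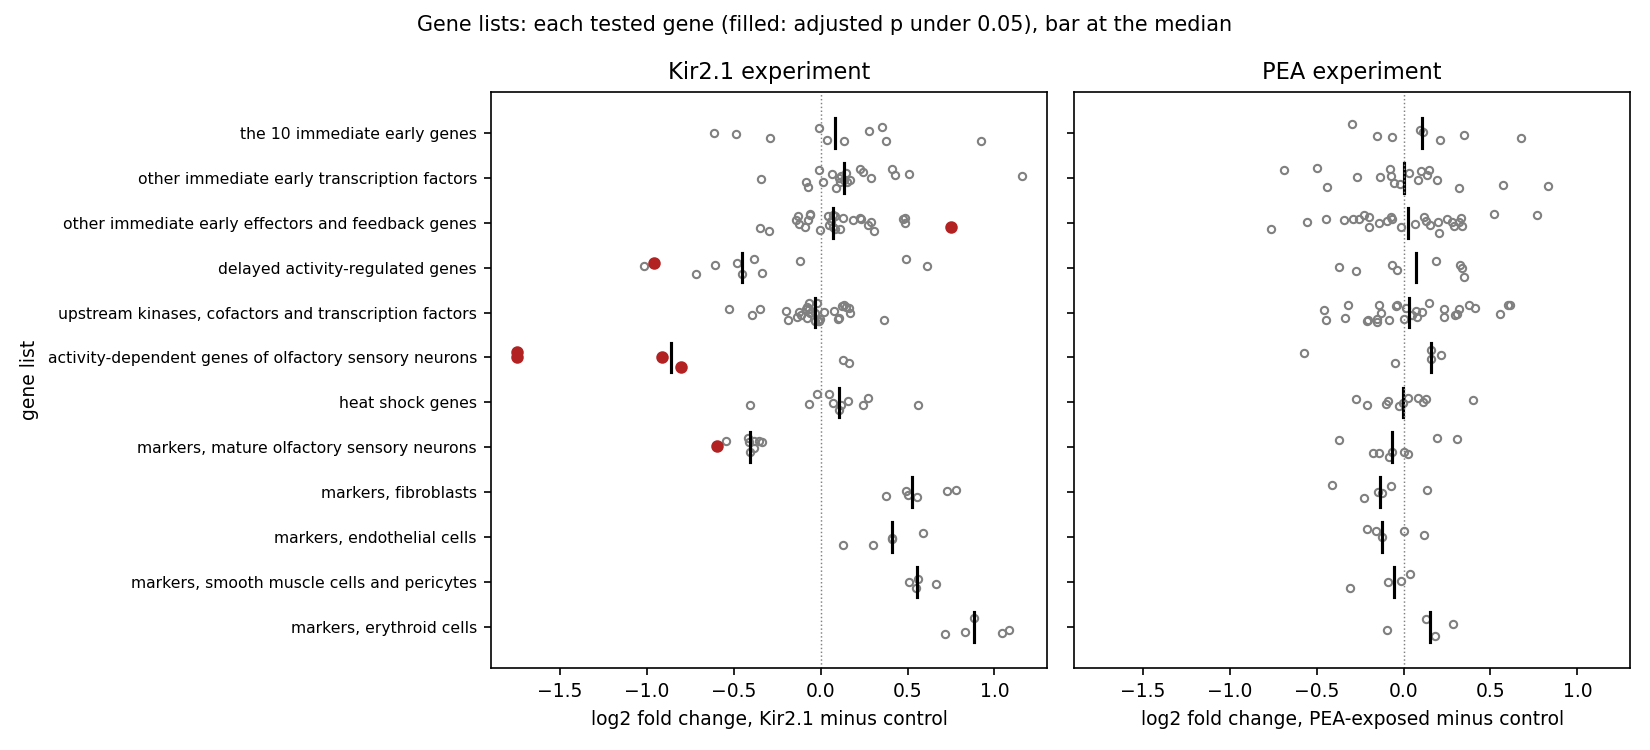
Log2 fold change of each tested gene of 12 gene lists in the Kir2.1 experiment (left) and the PEA experiment (right), with a bar at the list median. Filled points passed the adjusted test (limma, adjusted p under 0.05), and they lie in the left panel alone: Rgs2 above 0, and Nptx2, Omp and 4 activity-dependent OSN genes below.

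Markers of other cell types are given beside the values of Egr1, Fos, Junb and Fosl2. All 4 smooth muscle and pericyte markers were higher after silencing at an unadjusted p under 0.05, with sums of 10106 to 11208 against 5723 to 7984 in the controls. All 5 erythroid markers did so as well, with sums of 20242 to 33607 against 11005 to 19897. For fibroblasts it was 3 of 6 (sums of 128704 to 172396 against 67096 to 187860), and for endothelial cells 1 of 5 (1503 to 2125 against 1217 to 1529). No marker of these 4 lists passed the adjusted test, and none was at 0 in any mouse of that experiment. The summed mature OSN markers lay between 93977 and 106673 in the Kir2.1 mice and between 127554 and 142628 in the controls. The other marker lists moved in both directions. Their median log2 fold changes were 0.38 (horizontal basal cells), 0.23 (glia), 0.22 (macrophages), 0.20 (neutrophils) and 0.19 (respiratory ciliated cells and skeletal muscle). They were 0.02 for immature OSNs, -0.14 for sustentacular cells, -0.16 for neuronal progenitors and -1.16 for vomeronasal neurons. The vomeronasal sums overlapped (16062 to 23211 in the Kir2.1 mice, 18281 to 23178 in the controls), and 1 of 5 markers was lower at an unadjusted p under 0.05 (limma). Control mouse 1 stood out among these markers. Its Vmn1r51 was at 65.4, against 2.44 to 9.59 in the other mice of that experiment, and its Vmn2r1 was likewise above all of them. Summed respiratory ciliated and skeletal muscle markers were also higher in every Kir2.1 mouse. The part of these cell types in the immediate early gene values was not tested.

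Levels of different genes were set side by side per kb of merged exon. In the controls of the Kir2.1 experiment, Ier2 was the highest member at 913 ± 22.7 normalized counts per kb (SD, n = 3), followed by Nr4a1 (603), Dusp1 (593) and Junb (361). The level of Nr4a1 rested on control mouse 1, and it was 334 per kb without that mouse, below Dusp1 and Junb. The range of Nr4a1 overlapped with those of Ier2, Dusp1 and Junb, and Junb was separate from Dusp1 and Fos. Fos (131), Egr1 (123) and Arc (108) came next, and the ranges of Fos and Egr1 and of Egr1 and Arc overlapped. Fosl2 (80.1), Fosb (12.3) and Npas4 (4.96) were lowest, and none overlapped with its neighbours. In the PEA controls the order was Dusp1 (61.3), Nr4a1 (35.4), Ier2 (28.7), Fosl2 (22.3), Fos (18.3), Arc (10.3), Egr1 (9.10), Junb (5.81), Npas4 (1.02) and Fosb (0.514) per kb. There the ranges of Ier2, Fosl2 and Fos overlapped with their neighbours, as did those of Arc, Egr1 and Junb, and those of Npas4 and Fosb.

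Correlations between members from mouse to mouse had no common direction. Over the 14 mice, each taken as its deviation from its group mean, the 28 pairs of the 8 members tested in both experiments had a median Pearson r of -0.0035, from -0.75 (Egr1 with Arc) to 0.49 (Ier2 with Arc). Over the 6 mice of the Kir2.1 experiment, the 45 pairs of all 10 members ranged from -0.89 (Nr4a1 with Ier2) to 0.95 (Fos with Egr1). Of these pairs, 25 had an r above 0. Fos and Egr1 were correlated at 0.24 over all 14 mice. Some members had few reads in the PEA mice, such as Junb at about 8.40 to 40.3. The effect of such low counts on r was not tested. Fosb and Nr4a1 were correlated at 0.83 over the 6 mice, which share control mouse 1 as the extreme. All genes of a mouse come from its 1 library, so these values are descriptions. Of 16697 other genes, those most correlated with the mean deviation of the 8 members were Rpl27-ps1 (0.85), Kcnn2 (0.82), H4c11 (0.81), Rps21 (0.80), Rab26os (0.80), Wdr54 (0.80), Nuggc (0.80), Tmsb15b2 (0.80), Mri1 (0.80) and 2700062C07Rik (0.79). None of them is an immediate early gene of the lists, of which Nr4a3 came highest, with r = 0.71 and rank 50. The named genes top a search over 16697 genes in 14 mice. How high r would reach for unrelated genes in such a search was not tested.

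**Figure D5:**
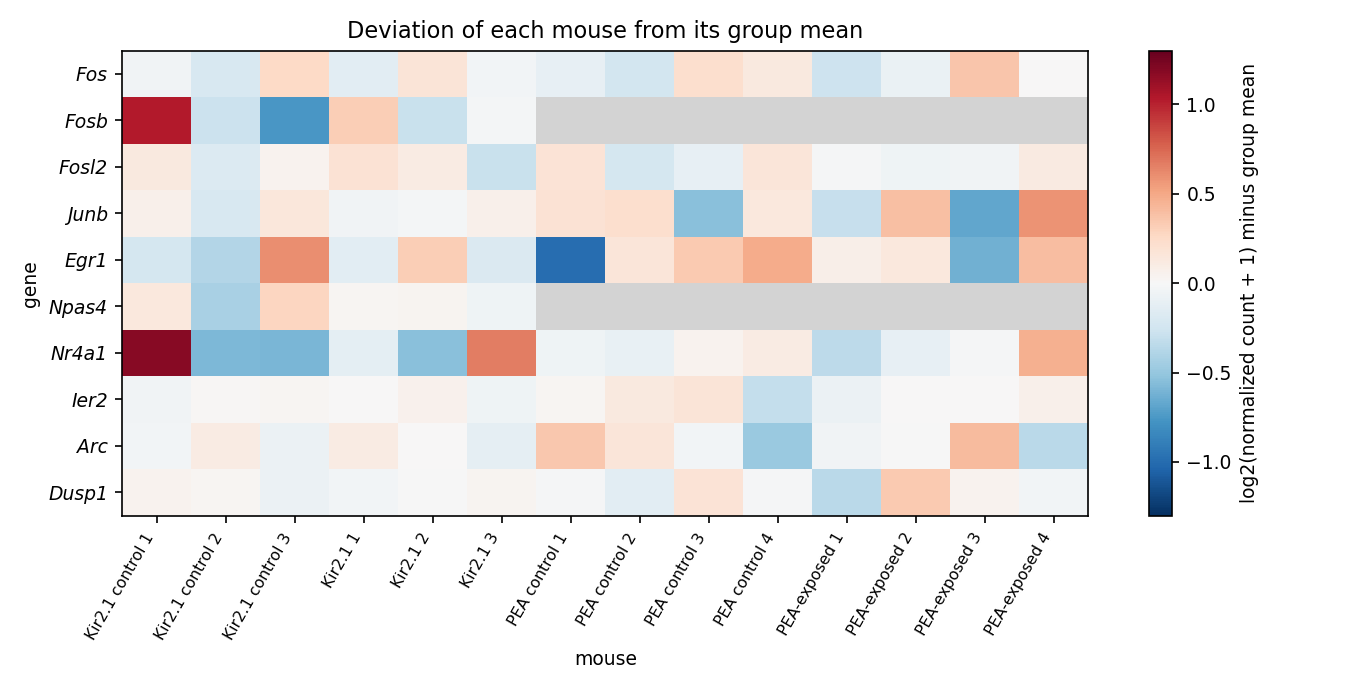
Deviation of each mouse (columns) from its group mean of log2(normalized count + 1) for each immediate early gene (rows), red above and blue below the mean and gray where the gene was under the filter. No mouse is red or blue throughout, and Nr4a1 and Fosb are highest in Kir2.1 control mouse 1.

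The promoters are shown because most members with a promoter entry share a sequence feature. The members were chosen by name and not by sequence, although the class is known for control through CREB, which binds that feature. Promoter entries from RefSeq (GRCm38.p6) matched 7 of the 10 genes, all but Egr1, Ier2 and Arc. The 250 bases before each RefSeq start were searched on both strands. For some genes that start differs from the GENCODE position given above. The windows of Dusp1, Nr4a1, Fosl2 and Npas4 thus lie inside their printed gene spans, and that of Fosb overlaps the edge of its span. The letters TGACG, the core of the cyclic AMP response element (CRE) that CREB binds, were in 6 of the 7 (all but Fosl2). Of the 32851 promoters of the same length, 17.8% held them. That share was not matched for base composition, and the 7 windows were 58.4% (Fos) to 74.4% (Nr4a1) G or C. The full element TGACGTCA, which holds the core on both strands, was in Dusp1 alone of the 7, against 1.55% of promoters. The AP-1 letters TGANTCA (6.75% of promoters) and the CArG box that SRF binds (1.47%) were in none of these windows. In the sequences of 5 members, 5′ to 3′ along the gene, capitals mark TGACG or its reverse complement.
Fos (chr12:85473640-85473889, + strand): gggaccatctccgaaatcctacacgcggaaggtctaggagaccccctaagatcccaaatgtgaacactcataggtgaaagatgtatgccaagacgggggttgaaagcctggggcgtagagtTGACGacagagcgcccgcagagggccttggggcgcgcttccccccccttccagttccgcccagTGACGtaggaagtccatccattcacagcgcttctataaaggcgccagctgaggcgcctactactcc
Junb (chr8:84978749-84978998, - strand): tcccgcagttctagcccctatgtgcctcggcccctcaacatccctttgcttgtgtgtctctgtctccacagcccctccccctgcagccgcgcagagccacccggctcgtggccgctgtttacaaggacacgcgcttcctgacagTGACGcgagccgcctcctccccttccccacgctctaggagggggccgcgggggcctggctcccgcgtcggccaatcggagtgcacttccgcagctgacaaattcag
Fosl2 (chr5:32136222-32136471, + strand): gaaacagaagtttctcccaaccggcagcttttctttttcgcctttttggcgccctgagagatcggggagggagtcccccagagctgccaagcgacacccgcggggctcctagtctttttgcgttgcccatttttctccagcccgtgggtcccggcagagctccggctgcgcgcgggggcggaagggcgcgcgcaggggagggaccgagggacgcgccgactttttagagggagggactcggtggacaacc
Nr4a1 (chr15:101266596-101266845, + strand): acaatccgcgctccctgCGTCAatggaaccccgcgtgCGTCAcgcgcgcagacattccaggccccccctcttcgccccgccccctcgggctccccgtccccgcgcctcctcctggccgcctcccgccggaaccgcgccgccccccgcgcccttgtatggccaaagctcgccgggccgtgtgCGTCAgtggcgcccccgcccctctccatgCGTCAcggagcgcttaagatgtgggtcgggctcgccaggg
Dusp1 (chr17:26508473-26508722, - strand): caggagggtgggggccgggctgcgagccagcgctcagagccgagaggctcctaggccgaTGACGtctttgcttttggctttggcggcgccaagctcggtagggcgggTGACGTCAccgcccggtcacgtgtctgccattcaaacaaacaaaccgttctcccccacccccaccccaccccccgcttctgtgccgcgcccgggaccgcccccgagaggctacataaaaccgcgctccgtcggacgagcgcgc
Fos held the core at positions -129 and -66 from its start and Junb at -106. Nr4a1 held 4 copies, all on the opposite strand, the nearest at -40, and Dusp1 held the full element at -143. Members with the core lay on both sides of 0 in the Kir2.1 experiment: the log2 fold changes were 0.38 for Fos, 0.28 for Junb and 0.13 for Dusp1, and -0.29 for Fosb, -0.49 for Npas4 and -0.62 for Nr4a1. Fosl2, without it, was at 0.35.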

How the data were processed

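The authors estimated transcript counts with Salmon (1.3.0) against the mouse transcriptome (GRCm38), combined them into gene values through tximport, and scaled each experiment separately by DESeq2 (1.30.0), per the labels and the study's methods. What the authors deposited is thus a scaled signal for each gene (normalized counts) in place of whole reads. Between 9.34% and 36.1% of the low values of a library were whole multiples of its most frequent low value (tolerance 0.02), so whole reads were not recovered, no count test was run and depth is known only approximately. That value was 0.808 to 1.18, and dividing by it gives about 32500000 to 35400000 reads per mouse (Kir2.1) and 9800000 to 15100000 (PEA). The Kir2.1 libraries were read as short unstranded single ends and the PEA libraries as longer stranded reads. The methods name the same strand setting of Salmon for all samples, and the effect of that setting on the unstranded libraries was not tested.

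Genes with a mean of at least 10 in an experiment were tested with limma 3.58.1 (R 4.3.3; eBayes with trend) on log2(value + 1), two-sided, with Benjamini-Hochberg adjustment over all genes tested and a threshold of 0.05. Fold changes on this scale understate the change of low genes. Confidence intervals are at 95%. Single members were also compared by a two-sided exact permutation test that enumerates every regrouping of mice. All 10 members are named, with the list genes that passed, or those highest in a list, and the 10 genes most correlated with the members. The members and lists were chosen with earlier results of these data known. The limma step was tested on simulated data. Gene positions and exon lengths came from GENCODE vM21 (GRCm38). Python 3.11.15 was used for the rest. Each mouse is a separate animal. Alternatives are in the closing section. One gene of the upstream list is not reported here.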

Additional observations from a re-analysis of the deposited data

Results flagged for a closer look

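Of 20 groups of 4 pups (10 genes in each PEA group), 1 was marked because a single sample lay far from the rest. Junb was at 8.65 in PEA control mouse 3 and at 14.4 to 15.4 in the other 3 controls. The gap made up 0.864 of the whole range, above Dixon's critical value for 4 samples. Chance marks about 1 in 20 such groups. Without that mouse the limma log2 fold change of Junb was 0.49, with an adjusted p of 0.662. The groups of 3 mice in the Kir2.1 experiment were not examined in this way.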

How the results depend on the processing

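In every alternative tried, no member was called in either experiment. The count of called genes depended far more on the settings. In the Kir2.1 experiment it was 70, and it became 20 without the limma trend, 23 with the vomeronasal receptor level as a covariate, 171 at a threshold of 0.10 and 23 to 44 with 1 mouse left out. In the PEA experiment it was 31, and it became 52 with no filter, 20 with the vomeronasal covariate, 49 without the 4 mice with a high vomeronasal level (leaving 1 control, assumed to vary like the exposed group), 128 at a threshold of 0.10 and 19 to 43 with 1 mouse left out. The median log2 fold change of the members in the PEA experiment moved from 0.10 to -0.15 with a mean of at least 50 and to -0.033 with the vomeronasal covariate.

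The replicate block left 9 genes called in the Kir2.1 experiment and 23 in the PEA experiment. The numbers do not pair the mice: mice of the same number deviated from their group means with correlations of -0.06, -0.01 and 0.16 and at 0.13, -0.02, -0.05 and 0.10, and although the Kir2.1 mice and their controls were littermates, the sources used here do not tie a number to a litter or day.

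Signs turned for some members, among them Fosb (Kir2.1), at -0.29 in the main fit, and Egr1 (PEA), at 0.11. Ier2 (Kir2.1) was at -0.0012 under median centring, Fosb (Kir2.1) at 0.23 with the vomeronasal covariate. With 1 mouse left out, Fosb (Kir2.1) ranged from -0.67 to 0.22 (positive without control mouse 1) and Arc (Kir2.1) from -0.065 to 0.049 (positive without control mouse 2 or Kir2.1 mouse 3). In the PEA experiment Egr1 was at -0.075 with the vomeronasal covariate, -0.096 with Xist as a covariate and -0.40 without the 4 mice with a high vomeronasal level. With 1 mouse left out there, Egr1 ranged from -0.22 to 0.32 (negative without control mouse 1 or exposed mouse 4), Fos from -0.18 to 0.026 (positive without control mouse 3 or exposed mouse 1) and Dusp1 from -0.015 to 0.21 (negative without exposed mouse 2). The Xist covariate and the fit without 4 mice were chosen after seeing the data. The causes were not tested, apart from the smaller number of mice where mice are left out.

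Depth limits the PEA values of Fosb and Npas4, which stand for 0 to 8.08 and 0 to 7.74 reads per mouse.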
